A study of Mus musculus with 16 samples.

Results

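The HoxB cluster of the mouse was described here through its 10 protein-coding Hox genes, Hoxb1 to Hoxb9 and Hoxb13. They were chosen by name among 25755 genes with a curated start site. With them was taken the interval of chromosome 11 from 96180000 to 96380000 (GRCm38) that holds them. The choice used no measured value, but earlier results of these data were known when it was made. The data were peak lists from chromatin immunoprecipitation followed by sequencing (ChIP-seq) in R1 mouse embryonic stem cells (ESCs). Antibodies against H3K4me3, H3K27me3 and Suz12 were each used in 2 cultures. Cells called LIF-ESCs received LIF at 100 units/ml and no 4-hydroxytamoxifen (OHT). Those called Myc-ESCs received OHT at 50 nM and no LIF, and OHT switches on MycER, an exogenous fusion of Myc with the oestrogen receptor. Both were kept without feeders in serum medium with vitamin C. Per the study's methods the MycER ESCs were clonal lines, and the labels do not name the clone behind these libraries. Each antibody and culture had 2 libraries, and 4 of the 16 libraries were inputs, but the lists used here were 1 for each antibody and culture. No spread between libraries could therefore be measured, no test was possible, and every difference below is a difference between 2 lists. The sequencing depth is unknown, so a region without a peak is a region where none was called at that depth. At the start sites of Pou5f1, Sox2 and Nanog, core factors of pluripotency looked up after the lists were seen, both cultures had H3K4me3 peaks and neither had a peak of H3K27me3 or Suz12.

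Hox genes encode homeodomain transcription factors that give cells their position along the head-to-tail axis, and the order of the genes along the chromosome follows the order of their use. In HoxB, Hoxb1 lies at the end used first and in the hindbrain, and Hoxb13 at the end used last and in the tail. Suz12 is a core subunit of Polycomb repressive complex 2, which places H3K27me3 on silent developmental genes, while H3K4me3 marks promoters that are active or poised. In ESCs, Hox promoters are known for carrying both histone marks, a state called bivalent.

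All 10 members had Suz12 within 2500 bp of a start site in both cultures, where 12.2% of all genes had it by the LIF-ESC list and 14.7% by the Myc-ESC list. The histone marks differed between the lists. H3K27me3 lay at 6 of 10 members in LIF-ESCs and at 10 of 10 in Myc-ESCs, beside 3.84% and 10.8% of all genes. H3K4me3 lay at 7 and 10 members, beside 62.7% and 63.9% of all genes, so that the LIF-ESC count was near the general share. In these bulk cultures, more cells with a mark and more of the mark per cell cannot be told apart. The members with all 3 marks were 3 in LIF-ESCs, namely Hoxb2, Hoxb3 and Hoxb4, and 10 in Myc-ESCs, where over all genes 2.80% and 8.94% had them. Marks at different start sites of a gene were counted together. At Hoxb3 in LIF-ESCs neither start site had both histone marks. H3K4me3 lay at the upstream one over 119 bases, and H3K27me3 at the downstream one over 186. Over the whole interval the lists held 370 of their 107863 peaks. H3K4me3 had 14 peaks over 32399 bp in the LIF-ESC list and 22 over 56497 bp in the Myc-ESC list. H3K27me3 had 27 peaks over 4849 bp and 125 over 27542 bp. Suz12 had 87 peaks over 78811 bp and 95 over 103158 bp. These bases are read against the length of the whole lists. The H3K27me3 bases of the interval were 5.68 times as many in Myc-ESCs, close to the 5.52 times of the whole list, and the Suz12 bases were 1.31 times as many, below the 1.51 times of the whole list. H3K4me3 stood apart from its list, with 1.74 times as many bases in the interval and 0.977 times in the whole list.

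**Figure D1:**
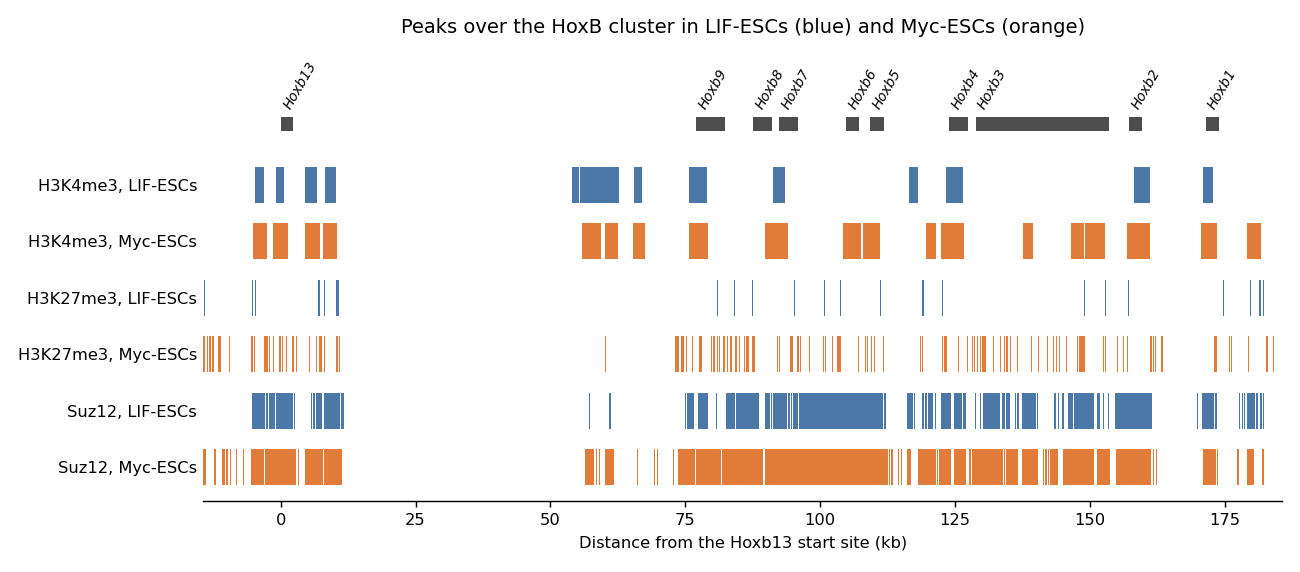
Each bar is a peak, drawn to scale by its distance in kb from the Hoxb13 start site, with 1 row per list and the members above as boxes from the first curated start site to the gene end. Suz12 fills most of the stretch from Hoxb8 to Hoxb5 in both cultures, H3K27me3 has 27 thin bars in the LIF-ESC row and 125 in the Myc-ESC row, and no list has a peak in the 3 bins of 10 kb that begin 15.7 kb from the Hoxb13 start site.

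Sequences under H3K27me3 of Myc-ESCs only are shown as examples of where the lists differed near members. They are the highest-scoring Myc-ESC H3K27me3 peaks at Hoxb13, Hoxb9 and Hoxb7, 3 of the 4 members without such a peak in LIF-ESCs, and the highest-scoring one of the interval, upstream of Hoxb4. The Hoxb13 peak reached into the window of 2500 bp around the start site with its edge only, and the part shown lies outside that window, and Hoxb4 had another H3K27me3 peak in its window in LIF-ESCs. The score is the one of the peak caller and ranks peaks within a list only. Each stretch is on the + strand of GRCm38, and peaks longer than 300 bases are shown by their central 300. The capitals mark CpG dinucleotides.
Hoxb13 chr11:96191447-96191746, between genes: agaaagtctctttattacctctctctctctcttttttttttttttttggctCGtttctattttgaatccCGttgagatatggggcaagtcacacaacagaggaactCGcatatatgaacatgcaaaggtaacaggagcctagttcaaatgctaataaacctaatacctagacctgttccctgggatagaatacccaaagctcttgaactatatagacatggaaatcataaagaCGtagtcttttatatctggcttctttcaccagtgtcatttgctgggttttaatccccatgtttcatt
Hoxb9 chr11:96270524-96270735, between genes: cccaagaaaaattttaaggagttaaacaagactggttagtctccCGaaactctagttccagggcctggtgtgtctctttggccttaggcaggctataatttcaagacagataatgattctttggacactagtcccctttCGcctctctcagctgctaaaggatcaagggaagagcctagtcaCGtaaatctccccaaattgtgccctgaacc
Hoxb7 chr11:96288845-96289144, in intron 1: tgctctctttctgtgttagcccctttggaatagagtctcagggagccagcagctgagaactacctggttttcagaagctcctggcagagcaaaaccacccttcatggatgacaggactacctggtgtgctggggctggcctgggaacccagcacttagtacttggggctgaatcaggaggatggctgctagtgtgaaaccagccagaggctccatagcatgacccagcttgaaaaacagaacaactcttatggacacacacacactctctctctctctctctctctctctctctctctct
Hoxb4 chr11:96317349-96317648, between Mir10a and Hoxb4 and inside the longer gene record of Hoxb3: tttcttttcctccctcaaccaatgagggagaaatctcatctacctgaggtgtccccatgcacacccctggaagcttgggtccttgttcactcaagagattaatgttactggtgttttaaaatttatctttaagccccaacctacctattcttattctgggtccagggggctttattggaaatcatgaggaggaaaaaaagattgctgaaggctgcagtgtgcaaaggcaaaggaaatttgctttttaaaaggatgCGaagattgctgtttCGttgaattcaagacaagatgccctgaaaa
None of the 4 stretches had a base under H3K27me3 in LIF-ESCs, and all of their bases were under H3K27me3 and Suz12 in Myc-ESCs. Suz12 of LIF-ESCs covered 206 of the 300 bases at Hoxb13, all 212 at Hoxb9, 166 of 300 at Hoxb7 and all 300 at Hoxb4. H3K4me3 covered the Hoxb9 stretch whole in both cultures and the Hoxb7 stretch in neither, while in Myc-ESCs it covered 264 bases at Hoxb13 and 300 at Hoxb4, beside 0 and 9 in LIF-ESCs. The stretches held 4, 3, 0 and 2 CpG dinucleotides. At the fourth member, Hoxb1, the peak lay in exon 2 beyond the coding part, from 1630 to 2043 bp after the start site, and its sequence is not shown.

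As a group, the H3K27me3 peaks were low in CpG beside those of H3K4me3. The 125 Myc-ESC H3K27me3 peaks of the interval had a median GC content of 44.8% and a median ratio of observed to expected CpG of 0.235, and the 16717 of the whole list 43.4% and 0.214. The 27 LIF-ESC peaks had 42.5% and 0.269. The H3K4me3 peaks of the interval stood at 53.1% and 0.508 in LIF-ESCs and at 53.2% and 0.509 in Myc-ESCs, above their lists at 49.7% and 0.420 and at 49.3% and 0.419. The Suz12 peaks went the other way, with a ratio of 0.348 in LIF-ESCs and 0.272 in Myc-ESCs where the lists had 0.512 and 0.477. Among the Myc-ESC H3K27me3 peaks, the 106 that overlapped no LIF-ESC peak and the 19 that did differed little, with GC contents of 44.8% and 44.0%, ratios of 0.231 and 0.260, and median lengths of 171.5 and 214 bp.

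Promoters of 3 members, Hoxb8, Hoxb4 and Hoxb1, had an entry among the 32851 RefSeq promoter sequences of GRCm38. The 250 bases before the start sites of Hoxb8 and Hoxb4 are shown because the marks divided between them, again with CpG in capitals and on the + strand.
Hoxb8 chr11:96281655-96281904: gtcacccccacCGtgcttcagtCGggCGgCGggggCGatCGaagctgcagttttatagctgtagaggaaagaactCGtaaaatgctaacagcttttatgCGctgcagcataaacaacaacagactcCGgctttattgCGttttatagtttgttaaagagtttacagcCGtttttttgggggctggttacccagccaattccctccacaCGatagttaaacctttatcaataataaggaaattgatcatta
Hoxb4 chr11:96318017-96318266: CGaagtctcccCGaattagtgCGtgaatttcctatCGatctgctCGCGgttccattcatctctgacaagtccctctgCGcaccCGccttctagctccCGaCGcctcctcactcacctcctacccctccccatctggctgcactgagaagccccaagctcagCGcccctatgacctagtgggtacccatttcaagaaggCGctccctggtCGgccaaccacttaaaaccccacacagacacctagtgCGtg
H3K27me3 covered 219 of the Hoxb8 bases by the LIF-ESC list and 192 by the Myc-ESC list, and H3K4me3 covered none in either. H3K4me3 covered all 250 of the Hoxb4 bases in both cultures, and H3K27me3 none in either. Suz12 covered both stretches whole in both cultures. Hoxb8, a gene that holds myeloid progenitors in an immature state when overexpressed, thus had the Polycomb mark there in both lists, and Hoxb4, known for expanding blood stem cells, had H3K4me3. Their 300-base promoters had CpG ratios of 0.970 and 0.593, that of Hoxb1 0.38, and all promoters a median of 0.384.

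The H3K27me3 lists were compared first at each start site, with a window of 2500 bp on either side, or 5001 bases for a gene with 1 start site. Hoxb13, a gene of the tail and the prostate, had no covered base in LIF-ESCs and 7 peaks over 1350 bases in Myc-ESCs. Its start site itself lay under a Myc-ESC peak, which held for no other member. Hoxb9, which acts in the thorax, had none in LIF-ESCs and 6 peaks in Myc-ESCs over 1057 bases. Hoxb7 likewise had none and 3 peaks over 767 bases, and Hoxb1, a gene of hindbrain identity, none and 1 peak over 414 bases. These 4 were the members with the mark in Myc-ESCs only; among all genes without it in LIF-ESCs, 8.00% had it in Myc-ESCs. Among genes that also had Suz12 in both cultures, the share was 64.3%, and that is the figure beside which 4 of 4 is read. With a window of 5000 bp the difference was not seen, since 10 of 10 members then had an H3K27me3 peak in LIF-ESCs; the nearest LIF-ESC peaks lay 4538, 3913, 2899 and 3167 bp from the start sites of Hoxb13, Hoxb9, Hoxb7 and Hoxb1.

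The other 6 members had exactly 1 LIF-ESC H3K27me3 peak each and between 3 and 13 in Myc-ESCs. Hoxb8 had 232 covered bases in LIF-ESCs and 1279 in Myc-ESCs. Hoxb6 had 151 and 987, and Hoxb5 156 and 880. Hoxb4 had 154 and 1123, and Hoxb2, a hindbrain gene, 172 and 654. Hoxb3 has 2 curated start sites, so that its windows hold 10002 bases, of which 186 were covered in LIF-ESCs and 2914 in Myc-ESCs. The upstream start site of Hoxb3 had no LIF-ESC peak and 9 Myc-ESC peaks, and the downstream one had 1 and 4. Covered bases were more in Myc-ESCs at 10 of 10 members, by 414 to 2728 with a median of 902.5. How many of all genes went the same way was not counted. Over the 2806 genes with Suz12 in both cultures, the median percent covered also rose, from 0 in LIF-ESCs to 5.12% in Myc-ESCs. The highest member had 232 bases in LIF-ESCs and the lowest 414 in Myc-ESCs. The whole Myc-ESC list covered 5.52 times as many bases as the LIF-ESC list. With lists of equal length this separation did not hold, since Hoxb5 then had the mark in LIF-ESCs only.

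**Figure D2:**
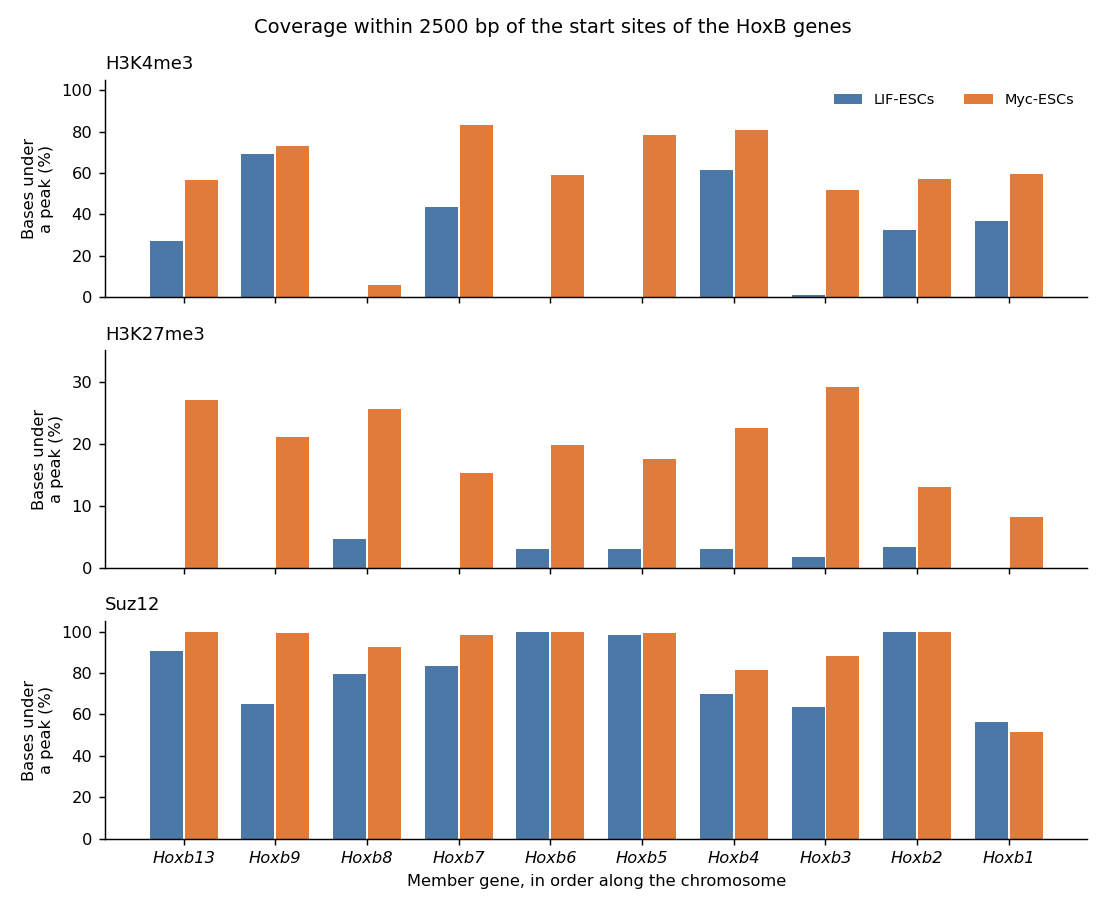
Bars give the percent of bases within 2500 bp of the start sites of each member that lie under a peak, in LIF-ESCs (blue) and Myc-ESCs (orange), with 1 list per bar and no error to draw; the H3K27me3 panel has its own scale. H3K4me3 and H3K27me3 bars are higher in Myc-ESCs at 10 of 10 members, while Suz12 is near 100% at Hoxb6, Hoxb5 and Hoxb2 in both. How many of all genes went the same way was not counted.

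Part of the H3K27me3 difference depends on how long the lists were. When the Myc-ESC list was limited to its 3120 highest scores, as many as LIF-ESCs had, the interval held 26 Myc-ESC peaks beside 27, over 10121 bases beside 4849, and 9 members had the mark beside 6. Hoxb1, Hoxb7, Hoxb9 and Hoxb13 still had it in Myc-ESCs only, and Hoxb5 in LIF-ESCs only. With a score of at least 100 in every list, 4 LIF-ESC and 28 Myc-ESC peaks were left in the interval, and Hoxb8 was the 1 member with the mark in LIF-ESCs, against 9 in Myc-ESCs.

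Along the interval the H3K27me3 of Myc-ESCs was spread out and not gathered at 1 gene. Of 20 bins of 10 kb, 11 held LIF-ESC H3K27me3 and 16 Myc-ESC H3K27me3, and the bases were more in Myc-ESCs in all of those 16. The bin with most bases held Hoxb9 and had 283 in LIF-ESCs and 3135 in Myc-ESCs. The anterior segment, from the start of Hoxb4 to the end of Hoxb1, had 3 and 43 peaks, covering 1.02% and 17.3% of its bases. The central segment, from Hoxb8 to Hoxb5, had 5 and 19 peaks over 3.16% and 18.7%. The posterior segment, from Hoxb13 to Hoxb9, had 6 and 30 peaks over 1.45% and 7.75%. Peaks no more than 1000 bp apart were joined into domains, of which the longest H3K27me3 one had 1534 bp in LIF-ESCs, with no member start site in it, and 8260 bp in Myc-ESCs, from the body of Hoxb9 to past the start site of Hoxb8. The highest score of the interval was 355.86, for the peak upstream of Hoxb4 shown above, at rank 311 of 16717. The next was 321.79, for a peak of 690 bp that ended 921 bp before the Hoxb6 start site.

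The stretch beyond Hoxb1 was the exception. In the 11747 bp from the end of Hoxb1 to the end of the interval, H3K27me3 covered 965 bases in LIF-ESCs and 961 in Myc-ESCs, while Suz12 covered 3250 and 2004. Of the 27 LIF-ESC H3K27me3 peaks of the interval, 9 overlapped no Myc-ESC peak, and 5 of those 9 lay here, from 3167 to 10582 bp after the Hoxb1 start site. Over the interval, 18 of 27 LIF-ESC peaks overlapped a Myc-ESC peak (66.7%, exact 95% interval 46.0% to 83.5%, which covers counting error only), and 19 of 125 Myc-ESC peaks overlapped a LIF-ESC peak (15.2%, 9.41% to 22.7%). Over the whole lists these shares were 51.6% and 8.95%. All but 2 of the 9 had a Myc-ESC peak within 1000 bp.

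**Figure D3:**
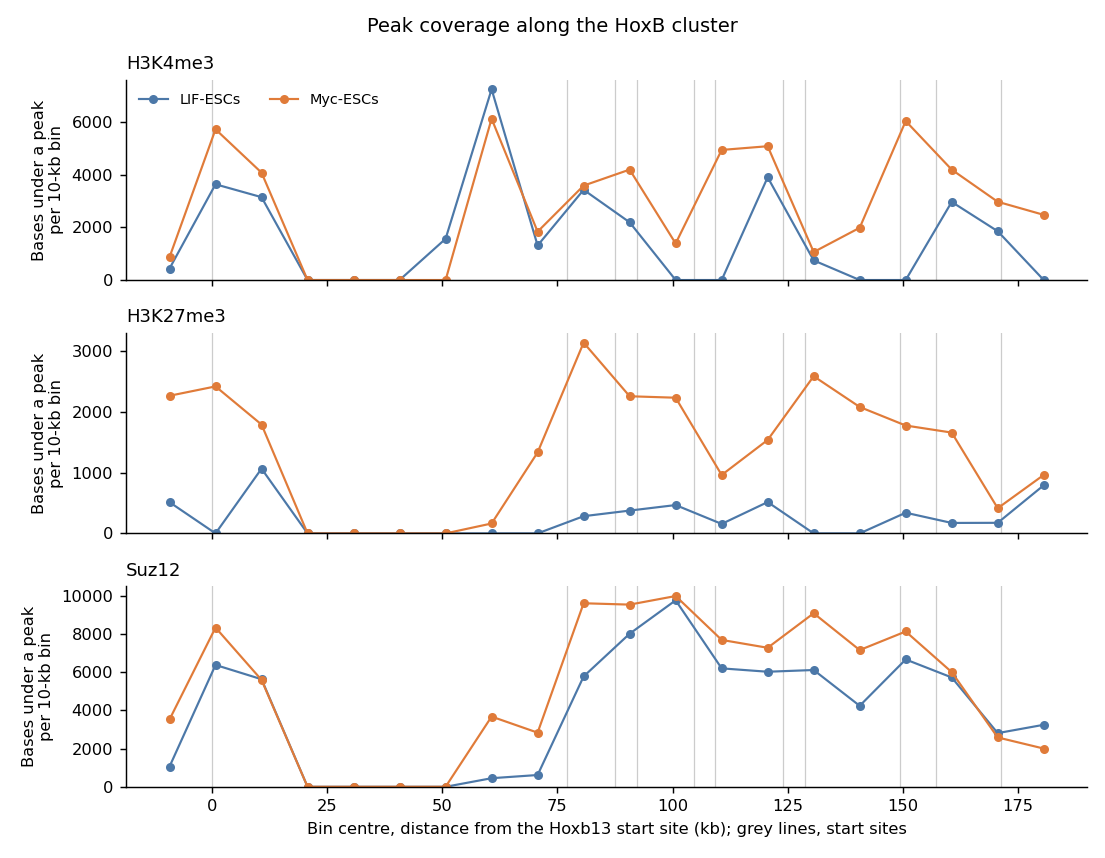
Points give the bases under a peak in each of 20 bins of 10 kb, by the distance of the bin centre from the Hoxb13 start site in kb; grey lines are start sites. H3K27me3 is higher in Myc-ESCs in 16 bins and 0 in both cultures in 4, H3K4me3 is lower in Myc-ESCs in 2 bins around Gm53, and Suz12 is lower in 3 bins, of which 2 are the last of the interval.

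H3K4me3 was compared next. Hoxb5, Hoxb6 and Hoxb8 had it in Myc-ESCs only. Among genes without it in LIF-ESCs, 6.35% had it in Myc-ESCs, and among those with Suz12 in both cultures 66.0%. Hoxb5 had no covered base in LIF-ESCs, where the nearest peak lay 7339 bp away, and 3924 in Myc-ESCs under 2 peaks, the higher-scoring one over exon 1, the intron and part of exon 2. Hoxb6 had none, with the nearest peak 11266 bp away, and 2963 in Myc-ESCs under a peak that ran over the whole transcript. Hoxb8 was the weakest case, with 296 bases at the edge of a peak over its exon 2, whose score was 53.82 and which was not listed at a score of at least 100; at that limit Hoxb5, Hoxb6 and Hoxb13 were the members with the mark in Myc-ESCs only. Its start site had no H3K4me3 in either culture.

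The other 7 members had H3K4me3 in both lists. Hoxb9 had nearly the same covered bases in both, 3464 and 3648, and its 3464 were the most of any member in LIF-ESCs. By score its peak stood lower in Myc-ESCs, at rank 15686 of 30345, than in LIF-ESCs, at rank 11806 of 32469. At the rest of these members the highest-scoring peak ranked higher in Myc-ESCs. Hoxb7 had 2190 and 4154, and Hoxb4 3077 and 4045. Hoxb2 had 1634 and 2864 and Hoxb1 1851 and 2969, while Hoxb13 had 1359 and 2843. Hoxb3 had only 119 of its 10002 bases covered in LIF-ESCs, and these were the edge of the Hoxb4 peak; in Myc-ESCs it had 5158, of which 4722 lay at its downstream start site under 3 peaks. With a window of 1000 bp Hoxb3 therefore counted among the members with the mark in Myc-ESCs only. Covered bases were more in Myc-ESCs at 10 of 10 members, by 184 to 5039 with a median of 1357. The ranges overlapped, from 0 to 3464 in LIF-ESCs and from 296 to 5158 in Myc-ESCs. How many of all genes had more bases in Myc-ESCs was not counted. Over the 2806 genes with Suz12 in both cultures, the median percent covered also rose, from 48.3% to 59.4%.

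The start site itself was under an H3K4me3 peak at 5 members in LIF-ESCs and at 9 in Myc-ESCs, and under an H3K27me3 peak at 0 and 1. Over the 11 curated start sites, H3K4me3 covered 45.2% and 78.6% of the bases within 500 bp, and H3K27me3 4.87% and 22.1%. Beyond 500 and up to 2500 bp upstream, H3K27me3 covered 1.63% in LIF-ESCs and 26.3% in Myc-ESCs. Over the same distance downstream it covered 0.709% and 14.6%. H3K4me3 was wider downstream than upstream, with 30.7% against 8.93% in LIF-ESCs and 67.9% against 42.2% in Myc-ESCs. At the start site base, 1 of 11 was under Myc-ESC H3K27me3 and 9 of 11 under Myc-ESC H3K4me3.

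**Figure D4:**
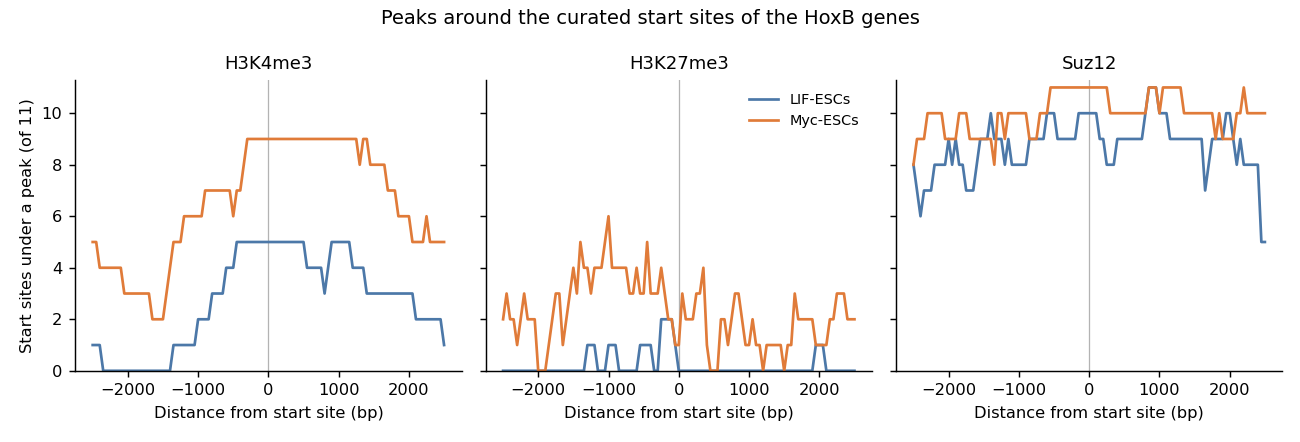
Lines give how many of the 11 curated start sites of the members had a peak at each distance from the start site, in bp, read on the + strand on which all members lie. In Myc-ESCs the H3K4me3 line reaches 9 at the start site and the H3K27me3 line has its highest point, 6, at 1000 bp upstream; Suz12 stays at 5 or more throughout.

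Between Hoxb13 and Hoxb9 the H3K4me3 lists went the other way. The widest and highest-scoring H3K4me3 peak of the interval in LIF-ESCs lay over the start of Gm53, a non-coding RNA gene, with 7140 bp, a score of 2846.56 and rank 4743 of 32469. In Myc-ESCs it was 2 peaks, of 3406 and 2372 bp, the higher one at rank 11119 of 30345. A LIF-ESC peak of 1389 bp beside it overlapped no Myc-ESC peak. Over the Gm53 gene, Suz12 covered 346 bases in LIF-ESCs and 3512 in Myc-ESCs. H3K27me3 covered 0 and 163. Over all 69719 bp between the windows of Hoxb13 and Hoxb9, H3K4me3 covered 20.2% and 18.4%, while in the central segment it covered 9.04% and 43.4% and in the anterior one 14.5% and 35.9%. No list had a peak in the 3 bins from 15.7 to 45.7 kb after the Hoxb13 start site, and the fourth bin had 1565 bases of LIF-ESC H3K4me3 alone.

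Suz12 covered more of the interval than either histone mark. It covered 39.4% of the interval in LIF-ESCs and 51.6% in Myc-ESCs. In the central segment it covered 90.2% and 98.0%. The longest LIF-ESC peak had 11069 bp over Hoxb6 and Hoxb5, and the longest Myc-ESC peak had 20296 bp and reached from before the start of Hoxb7 over Hoxb6 and Hoxb5, which therefore share it. Joined over 1000 bp, the longest domain had 29561 bp with the start sites of Hoxb8, Hoxb7, Hoxb6 and Hoxb5 in LIF-ESCs, and 44268 bp with that of Hoxb9 as well in Myc-ESCs. At the start sites, Hoxb9 had 3259 and 4964 covered bases, and Hoxb3 6370 and 8833, the 2 largest differences of the members. Hoxb6 had 5001 of 5001 in both. Hoxb8 had 3967 and 4625, Hoxb7 4172 and 4927, Hoxb4 3491 and 4068, Hoxb13 4528 and 4989, and Hoxb5 4918 and 4967. Hoxb2 had 5000 and 4992, and Hoxb1 2814 and 2586, so that 2 members had fewer bases in Myc-ESCs.

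Most H3K27me3 of the interval lay in Suz12. Of the H3K27me3 peaks, 23 of 27 in LIF-ESCs (85.2%, exact 95% interval 66.3% to 95.8%) and 106 of 125 in Myc-ESCs (84.8%, 77.3% to 90.6%) overlapped a Suz12 peak of the same culture, where over the whole lists 46.2% and 48.0% did. Within 1000 bp of one lay 26 of 27 and 124 of 125. No background share was measured for these counts. Suz12 domains joined over 1000 bp held 95226 bases by the LIF-ESC list, 117354 by the Myc-ESC list, beside 200001 bp for the interval. Of the 25414 bases with H3K27me3 in Myc-ESCs only, 56.2% were under Suz12 of LIF-ESCs, which covered 39.4% of the interval. Suz12 of Myc-ESCs covered 80.1% of these bases, beside 51.6% of the interval. H3K4me3 of LIF-ESCs covered 9.69% of them, beside 16.2% of the interval. H3K4me3 bases lay under Suz12 for 59.5% in LIF-ESCs and for 86.9% in Myc-ESCs. Within Suz12 of Myc-ESCs, H3K27me3 covered 28.2% of the bases without H3K4me3 and 14.7% of those with it.

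Beside the 2806 genes with Suz12 in both cultures, the members were covered more widely. Their median percent of the windows under Suz12 was 81.4% in LIF-ESCs and 98.9% in Myc-ESCs, beside medians of 20.0% and 32.5% over those genes, of which 10 are the members. For Myc-ESC H3K27me3 the medians were 20.4% and 5.12%. For H3K4me3 the members stood at 29.9% in LIF-ESCs beside 48.3%, and at 59.3% in Myc-ESCs beside 59.4%, so that the members were below these genes in LIF-ESCs and level with them in Myc-ESCs.

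The other Hox clusters were measured in the same way, by the percent of their start-site windows under a peak. H3K4me3 covered 25.1% in LIF-ESCs and 59.0% in Myc-ESCs in HoxB. It covered 43.4% and 46.5% in HoxA, 34.5% and 52.8% in HoxC, and 29.4% and 36.9% in HoxD. HoxB thus had the lowest value in LIF-ESCs and the highest in Myc-ESCs of these 4 clusters. For H3K27me3, HoxB had 1.94% and 20.8%, the lowest of the 4 in both cultures, beside 2.95% and 37.8% in HoxA, 4.39% and 32.4% in HoxC, and 4.44% and 37.4% in HoxD. For Suz12 the clusters had 79.0% and 90.6% in HoxB, 80.1% and 91.6% in HoxA, 70.7% and 90.9% in HoxC, and 76.8% and 83.3% in HoxD. In Myc-ESCs only, H3K27me3 was listed at 4 HoxB genes, 5 HoxA genes, 3 HoxC genes and 2 HoxD genes, and H3K4me3 at 3, 2, 2 and 1. In LIF-ESCs only, H3K4me3 was listed at 1 HoxA gene, Hoxa13, and 1 HoxD gene, Hoxd8, and at 0 genes of HoxB and HoxC. With 1 list per culture these orders were not tested.

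**Figure D5:**
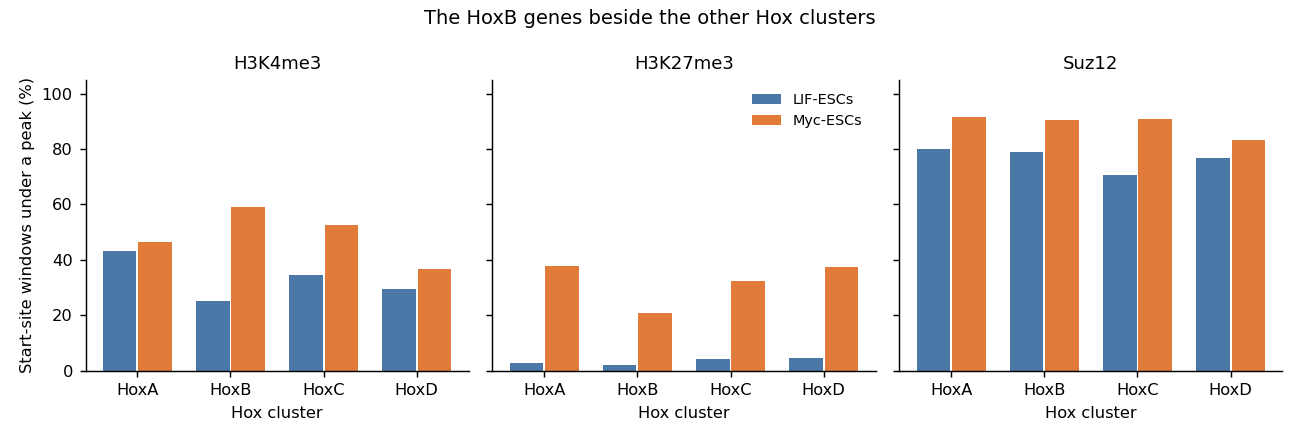
Bars give the percent of the start-site windows of each Hox cluster under a peak, in LIF-ESCs (blue) and Myc-ESCs (orange), with 1 list per bar and no error to draw. H3K4me3 in HoxB is the lowest of the 4 clusters in LIF-ESCs, at 25.1%, and the highest in Myc-ESCs, at 59.0%, while its H3K27me3 is the lowest in both.

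The interval also holds non-coding genes, among them miR-10a and miR-196a, small RNAs that sit between Hox genes and are known to bind Hox transcripts. Their mature sequences from RefSeq are shown because the marks differed at the gene of miR-10a and near that of miR-196a. The seed, bases 2 to 8, is in capitals, and the seeds differ from each other.
mmu-miR-10a-5p: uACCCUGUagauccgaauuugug
mmu-miR-196a-5p: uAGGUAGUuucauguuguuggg
The hairpin of Mir10a, at chr11:96317165-96317274, was under Suz12 along its 110 bases in both cultures. H3K4me3 covered none of it in LIF-ESCs and all of it in Myc-ESCs, and H3K27me3 covered 0 and 48 bases, which hold the miR-10a-3p arm. The hairpin of Mir196a-1, at chr11:96265164-96265265, was under no peak. Within 2500 bp of its start, H3K27me3 had no LIF-ESC peak and 2 Myc-ESC peaks over 223 bases, and Suz12 0 and 3. Gm51876, which overlaps it on the other strand, had 0 and 7 H3K27me3 peaks over 1543 bases within 2500 bp of its start. That window overlaps those of Mir196a-1 and Hoxb9, so that some of these peaks are also counted there. Hoxb5os, antisense to Hoxb6 and Hoxb5, had 0 and 6324 bases under H3K4me3 within the gene, but the peaks have no strand and also belong to Hoxb6 and Hoxb5.

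Inside the interval, the 11816 bp between its edge and the window of Hoxb13 had H3K27me3 over 4.34% in LIF-ESCs and 23.6% in Myc-ESCs. This was above the 2.42% and 13.8% of the whole interval. Suz12 covered 23.0% and 45.1% of that stretch, below the 39.4% and 51.6% of the whole interval. Outside the interval the marks covered less than within it. In the 100 kb before the interval, on the side of Hoxb13, H3K27me3 covered 0.439% and 3.23%, Suz12 7.18% and 8.99%, and H3K4me3 6.63% and 8.06%. These were above the shares of the whole genome, which were 0.0253% and 0.140% for H3K27me3, 0.228% and 0.344% for Suz12, and 3.41% and 3.33% for H3K4me3. In the 100 kb after the interval, on the side of Hoxb1, H3K27me3 covered 0.190% and 0.471%, Suz12 0.242% and 0.265%, and H3K4me3 3.18% and 6.38%. Of the protein-coding neighbours with a start site in these flanks, Calcoco2, Ttll6 and Skap1, all 3 had H3K4me3 in both cultures and none had Suz12. Skap1 had 126 bases of H3K27me3 in Myc-ESCs.

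Short motifs were searched on both strands over the interval. The E-box CACGTG, the site of Myc-Max dimers, occurred 27 times, or 13.5 times per 100 kb, beside 11.9 per 100 kb over chromosome 11. Within 1000 bp of a start site there were 6, at 60 and 45 bp before Hoxb7, 71 bp before Hoxb5, 385 and 944 bp after the start of Hoxb4, and 393 bp after the downstream start of Hoxb3. H3K4me3 covered 7 of the 27 in LIF-ESCs and 9 in Myc-ESCs, Suz12 11 and 13, and H3K27me3 0 and 1. The 1 lay in the Myc-ESC H3K27me3 peak upstream of Hoxb13, outside the stretch shown. By peaks, 1 of 125 Myc-ESC H3K27me3 peaks held the motif, 0.8%, beside 2.11% over the whole list. For LIF-ESC H3K27me3 it was 0% beside 1.79%. Of the Myc-ESC H3K4me3 peaks, 7 of 22 held it, 31.8%, beside 38.7%. The other lists went the other way. LIF-ESC H3K4me3 had it in 6 of 14 peaks, 42.9% beside 37.2%. Suz12 had it in 10 of 87 in LIF-ESCs, 11.5% beside 7.32%, and in 9 of 95 in Myc-ESCs, 9.47% beside 8.36%. None of these shares was adjusted for peak length. Median lengths of the Suz12 peaks were 310 and 350 bp in the interval, beside 262 and 269 bp over the lists. For LIF-ESC H3K4me3 they were 1763.5 bp beside 2316. None of the 3 member promoters with an entry held it, and 7.15% of all promoters did.

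The retinoic acid response element of the DR5 type, a repeat of the receptor half-site with a spacer of 5 bases through which retinoic acid is known to switch on Hox genes, matched 3 times in the interval, 1.5 per 100 kb beside 0.367 over chromosome 11. The 2 matches nearest to members are shown with the half-sites in capitals and the spacer in lower case, on the + strand.
Hoxb3 chr11:96341236-96341252: GGTTCAagaagAGTTCA
Hoxb1 chr11:96372776-96372792: GGTTCAtagagAGTTCA
The match 2533 bp before the downstream start site of Hoxb3 was under no peak in LIF-ESCs and under H3K4me3 and Suz12 in Myc-ESCs. The match 7018 bp after the start site of Hoxb1 was under none of the 6 lists. Of all promoters, 0.0974% held such a match.

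Genes that act with or above Hox genes were looked up by list. All 9 cofactors (Pbx, Meis and Pknox genes, whose proteins bind DNA beside Hox proteins) had H3K4me3 in both cultures. H3K27me3 was at 3 of 9 in both, namely Meis1, Meis2 and Pbx3. Of 6 upstream regulators (Cdx genes and retinoic acid receptors), 1 had H3K27me3 in LIF-ESCs and 3 in Myc-ESCs. Cdx2, which activates posterior Hox genes, had 164 and 1725 covered bases, and Cdx4 and Rarb had 0 in LIF-ESCs and 23 and 136 in Myc-ESCs. Suz12 was at 2 and 4 of the 6, and H3K4me3 at 6 and 5.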

How the data were processed

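Per the submitters' processing notes, reads were aligned to GRCm38 (mm10) with Bowtie2 2.2.3 and peaks were called with MACS 1.4.2. The authors deposited 6 peak lists with a start, an end and a score for each peak, where the score is the one MACS derives from a peak's p-value, starts at 50, and was used here only to rank or limit peaks within a list. The sources used here do not say if reads of both libraries were combined before peak calling; no list of an input library was used here. The signal under the peaks was not analysed here.

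Peaks were counted for the interval or for 2500 bp around curated RefSeq start sites on overlap of at least 1 bp, and covered bases were counted once per list. Python 3.11.15, numpy 2.4.6, scipy 1.17.1 and matplotlib 3.10.9 were used, and the interval arithmetic was checked on simulated peaks, with 0 of 12120 comparisons wrong. Groups came from the labels. No test was run, since each group had 1 list. The text names all 10 members, and other Hox genes, cofactors, upstream regulators, non-coding genes of the interval and neighbours within 100 kb as counts with examples. The members and the lists were chosen with earlier results of these data known. As alternatives, peaks were limited to scores of 100 or more or to lists of equal length, and windows of 1000 and 5000 bp, other start sites and other overlap rules were tried. One result is not reported here.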

Additional observations from a re-analysis of the deposited data

How the results depend on the processing

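There were 94 comparisons of a value with an alternative. Of these, 69 stayed within 1.5 times the value (for shares, within the exact interval) and 25 did not. The direction of a difference between cultures was not scored in them. Suz12 and H3K4me3 bases and member counts stayed within 1.5 times under every alternative tried. H3K27me3 was less settled. With a score of at least 100, its bases were 1101 in LIF-ESCs and 10703 in Myc-ESCs, its members 1 in LIF-ESCs and 8 in Myc-ESCs only, and the Myc-ESC peaks overlapping LIF-ESC peaks 7.14%. With lists of equal length, the Myc-ESC bases were 10121, 1 member was in LIF-ESCs only, and the overlapping shares were 29.6% of LIF-ESC and 26.9% of Myc-ESC peaks. With a window of 5000 bp, 10 members had H3K27me3 in LIF-ESCs and 0 had it in Myc-ESCs only. Counting peaks within 1000 bp gave 92.6% and 39.2%, and asking for at least 50% of the peak gave 8.00% of Myc-ESC peaks. The share of H3K27me3 peaks near Suz12 was 100% for LIF-ESCs with a score of at least 100 or within 5000 bp, 100% for Myc-ESCs with equal lists or within 5000 bp, and 84.8% of Myc-ESC peaks by overlap. Joining over 5000 bp made all 6 longest domains more than 1.5 times as long, up to 86423 bp for LIF-ESC and 105917 bp for Myc-ESC Suz12.

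Leaving out a library could not be run, because the lists used here are 1 per culture and antibody. No paired analysis was possible because the results come from no test and the lists carry no replicate numbers. The depth is unknown, so a missing peak cannot be told from one under the caller's limit.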
